A study of Mus musculus with 16 samples.

Results

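The 55 protein-coding genes whose symbols name a collagen chain (Col followed by type and chain number) or a laminin chain (Lama, Lamb or Lamc followed by a number) were followed through hippocampal RNA of tau transgenic mice with and without Ch25h. They make up 55 of the 55487 genes in the deposited table, 44 collagens and 11 laminins, and were taken by symbol with no use of their measured levels. The 16 libraries came from right hippocampi of female mice perfused with PBS, at an age labelled as 40 weeks and as 9.5 months. Wild-type mice (WT), Ch25h knockout mice (CKO), mice of the PS19 line (T) and PS19 mice without Ch25h (TCKO) gave 4 libraries each. PS19 mice overexpress the 1N4R isoform of human tau with the P301S mutation from a PrP promoter, so T and TCKO share the transgene and CKO and TCKO share the loss of Ch25h, the enzyme that hydroxylates cholesterol to an oxysterol. TCKO set against T addresses the absence of Ch25h on the tau background, and T set against WT addresses the transgene where Ch25h is intact. The labels do not say that the libraries came from separate mice, and p-values then measure only the spread between these libraries, which may be technical.

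Collagens are secreted proteins whose chains wind into helical trimers inside the cell after hydroxylation of their prolines and lysines. Fibrillar collagens bundle into fibres outside the cell, the FACIT collagens lie along such fibres, and type IV collagens link into the sheet of the basement membrane. Laminins are trimers of an alpha, a beta and a gamma chain and form the other sheet of that membrane, where integrins and dystroglycan bind them. In brain, basement membranes wrap the vessels and the pial surface, fibrillar collagens are made mainly by meningeal and perivascular fibroblasts, and a few membrane-anchored collagens are made by neurons.

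Type IV collagen genes lie in pairs that are read in opposite directions from a shared stretch of DNA, and members of such pairs enter the results below. In GENCODE M21 on GRCm38, the start sites of Col4a1 and Col4a2 on chromosome 8 were 21 bases apart and the gene bodies overlapped by 22 bases, where reads cannot be told apart because no source used here says that counting used strand. Those of Col4a6 and Col4a5 on chromosome X were 1309 bases apart, and those of Col4a4 and Col4a3 on chromosome 1 were 72 bases apart. The windows below are shown for the first and second of these pairs and for Col16a1, the member with the largest difference between T and WT. Each holds 250 bases before and 50 after the RefSeq start site on GRCm38.p6, written 5′ to 3′ on the gene's own strand. Capitals mark matches to the GC box, whose letters are GGGCGG, and to the CCAAT box. The TATA box was searched as well, with the letters TATAAA. Both strands were read, so the reverse complement of a motif is in capitals too, and no matches overlapped in these windows.
Col4a1, chr8:11312777-11313076, minus strand: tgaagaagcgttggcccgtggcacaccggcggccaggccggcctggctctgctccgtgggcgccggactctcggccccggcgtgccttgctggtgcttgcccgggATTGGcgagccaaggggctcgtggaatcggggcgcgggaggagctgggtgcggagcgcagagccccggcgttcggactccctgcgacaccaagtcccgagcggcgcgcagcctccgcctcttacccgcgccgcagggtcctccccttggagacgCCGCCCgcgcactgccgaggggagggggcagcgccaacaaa
Col4a2, chr8:11312555-11312854, plus strand: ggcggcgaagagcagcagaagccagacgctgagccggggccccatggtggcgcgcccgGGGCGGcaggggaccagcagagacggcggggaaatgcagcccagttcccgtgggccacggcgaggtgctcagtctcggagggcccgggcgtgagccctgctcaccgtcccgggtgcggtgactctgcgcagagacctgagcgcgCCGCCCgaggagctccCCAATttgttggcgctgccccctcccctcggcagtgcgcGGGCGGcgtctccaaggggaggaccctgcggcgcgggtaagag
Col4a6, chrX:141474027-141474326, minus strand: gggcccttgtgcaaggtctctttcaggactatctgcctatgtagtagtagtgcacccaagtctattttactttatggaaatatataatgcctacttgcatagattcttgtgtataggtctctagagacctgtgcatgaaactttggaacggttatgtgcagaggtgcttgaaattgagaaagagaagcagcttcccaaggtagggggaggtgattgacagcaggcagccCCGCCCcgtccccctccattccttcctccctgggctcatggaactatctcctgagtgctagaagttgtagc
Col4a5, chrX:141475169-141475468, plus strand: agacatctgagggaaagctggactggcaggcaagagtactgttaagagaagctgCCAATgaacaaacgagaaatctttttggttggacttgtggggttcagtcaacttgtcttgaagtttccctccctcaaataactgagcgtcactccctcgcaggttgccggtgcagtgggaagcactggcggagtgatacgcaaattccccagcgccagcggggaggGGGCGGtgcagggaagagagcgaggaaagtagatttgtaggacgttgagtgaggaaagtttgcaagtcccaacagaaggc
Col16a1, chr4:130047590-130047889, plus strand: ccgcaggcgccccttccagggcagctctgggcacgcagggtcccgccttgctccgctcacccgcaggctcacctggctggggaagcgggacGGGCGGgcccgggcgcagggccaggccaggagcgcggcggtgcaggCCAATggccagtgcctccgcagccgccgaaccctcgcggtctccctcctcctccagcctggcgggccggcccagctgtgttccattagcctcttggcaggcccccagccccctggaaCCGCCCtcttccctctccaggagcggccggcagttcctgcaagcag
The Col4a1 and Col4a2 windows shared 78 bases, and the Col4a6 and Col4a5 windows shared 0. Col4a2 held 3 GC boxes, Col16a1 held 2 and the other windows held 1 each. A CCAAT match stood in the Col4a1, Col4a2, Col4a5 and Col16a1 windows, and TATAAA was in 0 of the 5. RefSeq windows were found for 40 of the 55 genes, as 44 windows, and 59.1% of these held a GC box against 35.7% of all 32851 windows in the table. For CCAAT the shares were 31.8% and 37.4%, and for TATAAA 11.4% and 13.6%. The median share of G and C letters was 59.5% in the member windows and 52.7% in all windows. Its part in the GC box shares was not tested. A match describes the letters of the window only.

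Libraries held 15064309 to 34348284 estimated reads, of which the 55 genes took 0.00874% to 0.0197%. Ch25h had 18 to 40 reads in WT, 133 to 300 in T, 0 to 2 in CKO and 0 to 1 in TCKO, so it was near 0 in each library labelled as lacking it. The summed level of 12 hippocampal neuron markers was 945 to 1770 CPM (reads scaled to a common TMM-adjusted library total) in each library, and that of 10 thalamus and striatum markers was 98.7 to 461 CPM, highest in T replicate 2. WT replicate 1 and T replicate 4 stood apart: 15 choroid plexus markers summed to 11700 CPM in each of these libraries and to 162 to 1210 CPM in the other 14. Calls on the genes named here that change without these libraries are given with and without them. Replicates are numbered 1, 2, 4 and 5 in WT and CKO and 2, 3, 4 and 5 in T and TCKO, and values are listed in that order.

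Levels of these genes were low, and 12 of the 55 had too few reads to be tested: Col5a1, Col5a3, Col6a5, Col6a6, Col7a1, Col10a1, Col13a1, Col14a1, Col17a1, Col20a1, Col24a1 and Col28a1. None of the 12 reached 1 CPM in any library. On the per-length scale of the deposited TPM (transcript abundance corrected for length and depth), Lamb1 had the highest mean level, 4.55 TPM, over all 16 libraries. Col25a1, a membrane-anchored collagen of neurons, followed at 4.22 TPM, then Col9a3 at 3.14, Lamc1 at 2.91, Lama2 at 2.59 and Lamb2 at 2.49 TPM. Lamb1, Lama2 and Lamc1 are the beta, alpha and gamma chains that can form 1 laminin trimer. The order differed between genotypes: Lamb1 led in WT (4.38 TPM) and CKO (6.28 TPM), Col9a3 in T (5.6 TPM) and Col25a1 in TCKO (4.97 TPM). Col9a3 stood at 10.9 TPM in T replicate 4. Library values of neighbours in this order overlapped, as the plot of TPM shows. TPM depends on the effective length estimated for each library, which was unstable for some of these genes: the group means for Lama5 ran from 1846 to 8546 bases and those for Col15a1 from 1654 to 3199. Differences between genotypes were therefore tested on read counts.

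**Figure D1:**
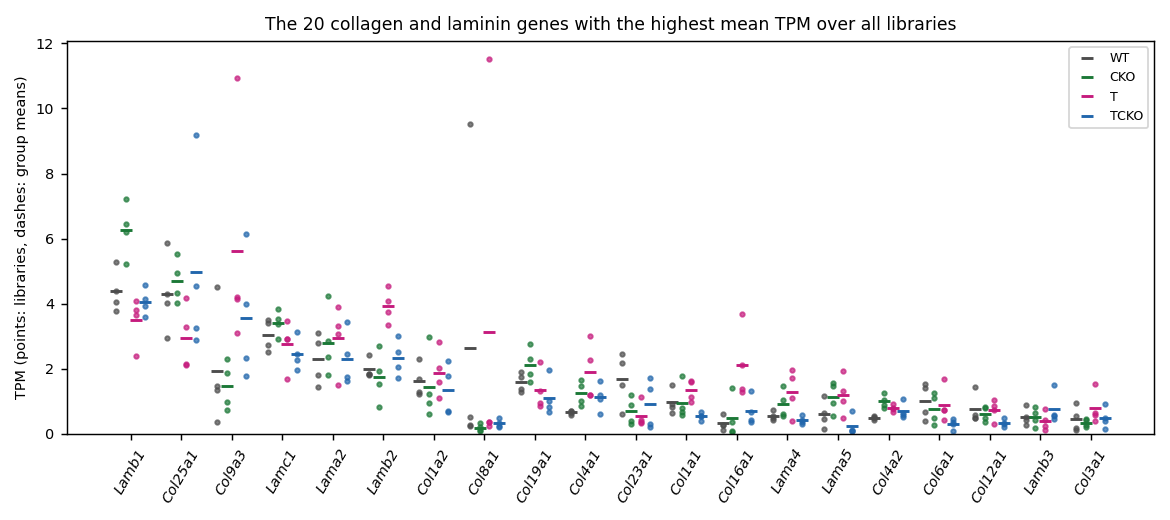
Level per length (TPM, linear axis) of the 20 collagen and laminin genes with the highest mean, one point per library and a dash at the mean of each genotype (n = 4). Lamb1 and Col25a1 have the highest means over all libraries, and single libraries stand high for Col9a3 and Col8a1.

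In T against WT, 9 of the 43 genes tested rose and 0 fell: Col16a1, Col11a1, Col11a2, Col27a1, Col3a1, Col4a1, Col4a6, Col15a1 and Lamb2. That is 8 of 32 collagens and 1 of 11 laminins, with rises of 1.02 to 3.42 on the log2 scale. The 20.9% of members that passed compares with 24.2% of all 18565 genes tested, 13% higher and 11.2% lower, so the share lay near the background while the direction was one-sided. The median log2 difference was 0.44 over the members tested and -0.01 over all genes. At an unadjusted p below 0.05 there were 16 higher and 2 lower members. The share of all genes at this unadjusted cutoff was not counted in any comparison, so such counts have no background beside them. Groups did not overlap for 9 higher members and 1 lower one, where 25.1% of all genes did not overlap (13.3% higher, 11.8% lower). DESeq2 called 11 higher and 1 lower, limma voom 11 higher and 0 lower, and edgeR with the replicate number as a block 7 higher and 1 lower. The shares of all genes given here and below are those of the main edgeR fit and are no background for counts from other settings. The low-read filter keeps genes that are high in 1 genotype alone, so these counts describe the members tested and not the 55.

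In TCKO against T, 9 of 43 members fell and 0 rose: Col4a5, Col4a6, Col1a1, Col3a1, Col16a1, Col12a1, Col6a1, Lama5 and Lamb2. Their differences ran from -0.95 to -2.11 on the log2 scale. The share called was again 20.9%, against 12.9% of all genes, 8.05% lower and 4.81% higher. The median was -0.61 over the members tested and 0.02 over all genes. All 17 members with an unadjusted p below 0.05 were lower in TCKO, again with no share of all genes counted. Groups did not overlap for 12 lower and 0 higher members, against 9.65% lower and 5.14% higher of all genes (14.8% together). DESeq2 called 10 lower and 0 higher, and limma voom 9 lower and 0 higher. This count moved most with the choice of libraries, since 5 members passed without WT replicate 1 and T replicate 4 and 3 passed without TCKO replicate 5. The T libraries enter this comparison as well as T against WT, so the 2 sets of values share their noise and are given side by side below.

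**Figure D2:**
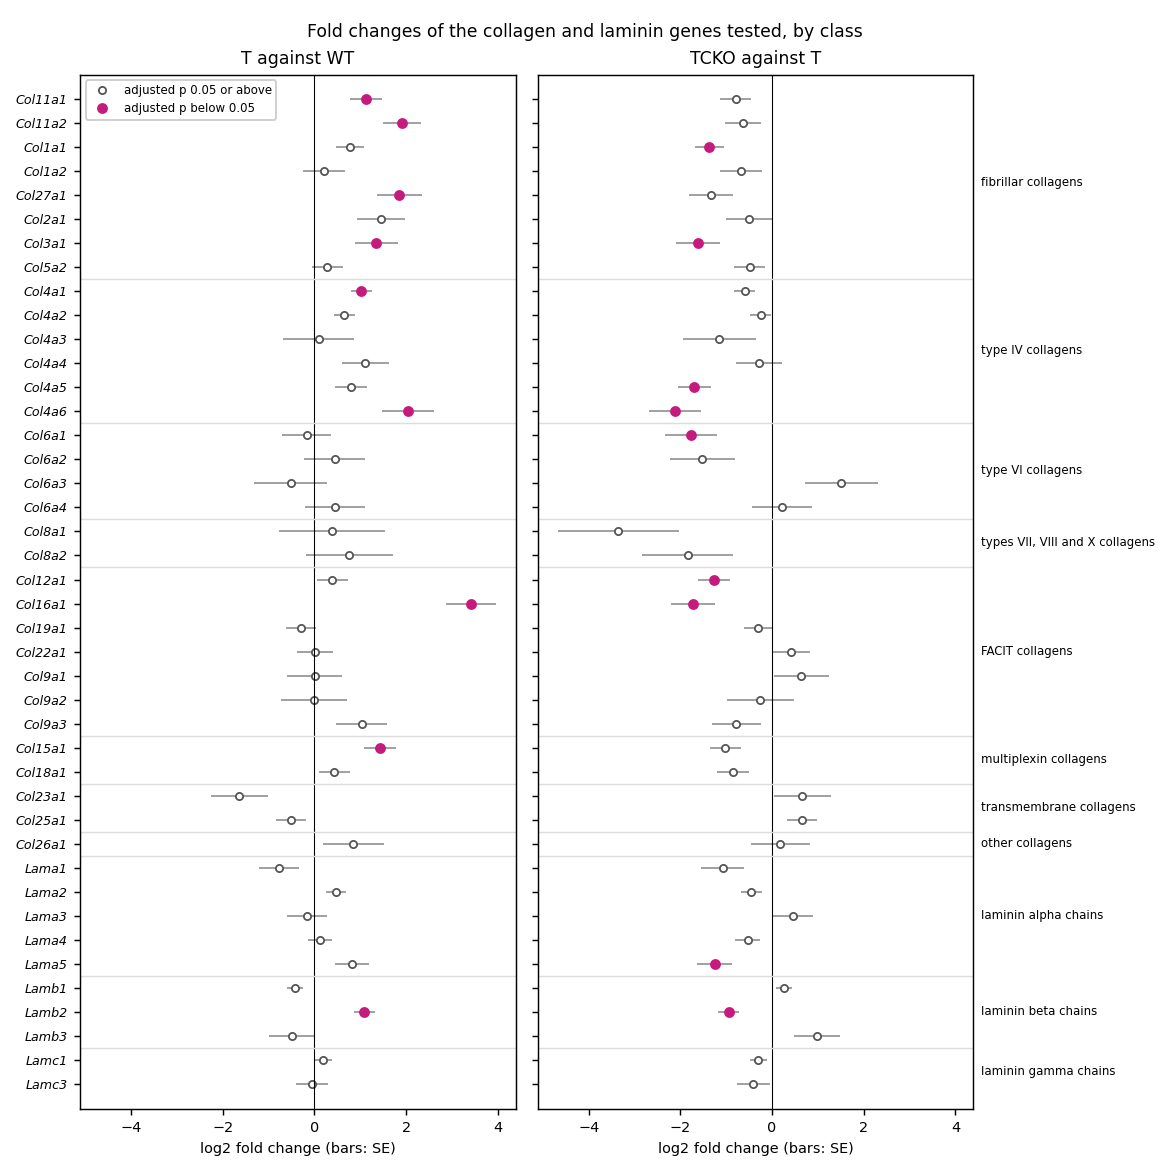
Log2 fold change (x axis, bars are SE, n = 4 libraries per genotype) of 42 of the 43 genes tested, by class, in T against WT and in TCKO against T. Filled points passed an adjusted p of 0.05: 9 to the right of zero in T against WT and 9 to the left in TCKO against T.

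Among the type IV collagens, which form the collagen sheet of basement membranes, 2 of 6 rose in T and 2 of 6 fell in TCKO against T. Col4a1, a chain present in nearly all basement membranes, lay at 2.94, 2.46, 2.81 and 2.86 CPM in WT and at 7.61, 6.67, 4.06 and 4.06 CPM in T. Each T library was above each WT library, and T replicates 2 and 3 were the highest. Col4a1 rose by 1.02 ± 0.23 (log2, SE) in T (edgeR quasi-likelihood test, adjusted p = 0.00458). In TCKO it lay at 2.73, 3.58, 4.82 and 3.63 CPM, overlapping T, and the difference of -0.60 ± 0.23 did not pass (adjusted p = 0.0973). Col4a2, its partner in the trimer and in the shared promoter shown above, gave 2.19, 2.4, 2.23 and 1.91 CPM in WT and 3.41, 3.15, 3.1 and 4.06 CPM in T. Again no T library was as low as any WT library, but the difference of 0.65 ± 0.23 just missed the threshold (adjusted p = 0.0503). DESeq2 and limma voom both called Col4a2 higher in T.

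Col4a6 and Col4a5, the pair on the X chromosome whose chains meet in the basement membranes of smooth muscle and some epithelia, are the type IV members that fell in TCKO against T. Col4a6 lay at 0.258, 0.801, 0.612 and 0.176 CPM in WT, 2.26, 2.6, 1.53 and 1.28 CPM in T and 0.867, 0.348, 0.297 and 0.273 CPM in TCKO. T stood above both other genotypes in each library, and TCKO replicate 2 was the highest of its group. The rise in T was 2.04 ± 0.56 log2 units (adjusted p = 0.0141, and 0.0566 without WT replicate 1 and T replicate 4), and the difference of TCKO from T was -2.11 ± 0.57 (adjusted p = 0.0218). The latter missed the threshold without T replicate 2, T replicate 3 or TCKO replicate 5 (0.0581 to 0.0713). Col4a5 gave 2.52, 0.949, 1.19 and 1.09 CPM in WT, 2.71, 2.02, 3.55 and 1.69 CPM in T and 1.04, 0.729, 0.556 and 0.741 CPM in TCKO. All TCKO libraries were below all T libraries, while WT replicate 1 reached into the T range. Col4a5 fell by 1.70 ± 0.36 log2 units in TCKO against T (adjusted p = 0.00513) in each alternative run, and its difference between T and WT was 0.79 ± 0.35 (adjusted p = 0.11). Col4a3 and Col4a4 did not pass in either comparison, with Col4a4 at 1.11 ± 0.51 in T against WT (adjusted p = 0.132).

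Of the laminin chains, Lamb2 was the member called in each of the 2 comparisons. Lamb2 encodes a beta chain of vascular and synaptic basement membranes and lay at 7.3, 5.96, 7.88 and 7.59 CPM in WT and at 17.7, 14, 15.8 and 13.5 CPM in T. The lowest T library was well above the highest WT library. The rise was 1.09 ± 0.22 log2 units (adjusted p = 0.00184). TCKO libraries lay at 6.81, 8.78, 6.6 and 9.32 CPM, all below T and in part inside the WT range. The difference of TCKO from T was -0.95 ± 0.22 (adjusted p = 0.00812, and 0.0565 with an effective length offset). Lamb1, the beta chain that Lamb2 can replace in a trimer, lay at 22.8, 19.8, 18.7 and 17 CPM in WT and 12.2, 9.97, 17.9 and 18.2 CPM in T. These overlapped, and the difference of -0.42 ± 0.17 did not pass (adjusted p = 0.0806). Lamb3, a beta chain of epithelial laminins, gave -0.49 ± 0.51 for T against WT, then 0.98 ± 0.51 for TCKO against T, with neither passing (adjusted p = 0.531 and 0.221).

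Lama5, the alpha chain of endothelial basement membranes, was called in TCKO against T. It lay at 1.78, 0.949, 1.37 and 1.17 CPM in WT, 1.94, 2.56, 3.33 and 1.44 CPM in T and 0.564, 0.792, 1.89 and 0.624 CPM in TCKO. The TCKO libraries were low apart from replicate 4, which overlapped T. The difference of TCKO from T was -1.25 ± 0.38 (adjusted p = 0.0389), and that of T from WT was 0.82 ± 0.37 (adjusted p = 0.125). The call in TCKO missed the threshold without CKO replicate 1, T replicate 2, 3 or 4, or TCKO replicate 2, 3 or 5 (0.0505 to 0.119). It also missed it without WT replicate 1 and T replicate 4 together (0.11). Lama4, the other endothelial alpha chain, lay at 2.29, 2.56, 1.92 and 2.37 CPM in T and 1.39, 1.43, 1.89 and 1.64 CPM in TCKO. Its groups did not overlap, yet the difference of -0.53 ± 0.27 was not called (adjusted p = 0.216). Lama2, made by astrocytes and perivascular cells, differed by 0.47 ± 0.22 in T against WT (adjusted p = 0.131) and Lama1, of the pial membrane, by -0.77 ± 0.43 (adjusted p = 0.215). Each T library of Lama1 lay below each WT library, at 0.891, 0.44, 0.864 and 0.343 CPM against 0.936, 1.13, 1.37 and 0.918 CPM. Lamc1, the gamma chain shared by most laminins, did not pass and gave 0.19 ± 0.19 for T against WT, then -0.30 ± 0.19 for TCKO against T (adjusted p = 0.516 and 0.326).

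Of the multiplexins, which sit at the edge of basement membranes, Col15a1 passed in T against WT. It lay at 0.226, 0.356, 0.396 and 0.424 CPM in WT, 0.891, 1.1, 1.02 and 0.749 CPM in T and 0.39, 0.57, 0.445 and 0.429 CPM in TCKO. T was above both other groups in each library. Its group means stayed below 1 CPM, outside the rule for genes named here, and it is given to complete the count of 9. The rise was 1.42 ± 0.35 log2 units (adjusted p = 0.00731), which was not called without WT replicate 1 and T replicate 4 (0.0572) or with an effective length offset (0.505). In TCKO against T the difference was -1.02 ± 0.34 (adjusted p = 0.0587). Col18a1, the precursor of endostatin, differed by 0.43 ± 0.34 and -0.85 ± 0.35 in the 2 comparisons and did not pass (adjusted p = 0.393 and 0.117).

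Of the fibrillar collagens tested, 4 of 8 rose in T and 2 of 8 fell in TCKO against T. Col11a2, a minor chain that nucleates thin fibrils, lay at 0.258, 0.83, 1.01 and 0.353 CPM in WT and at 2.04, 3.04, 2.5 and 1.72 CPM in T. All T libraries were above all WT libraries, and Col11a2 rose by 1.91 ± 0.41 log2 units (adjusted p = 0.00299). In TCKO, at 1.04, 1.36, 2.45 and 1.09 CPM, replicate 4 matched the T range and the difference from T was -0.64 ± 0.39 (adjusted p = 0.304). Col27a1, a fibrillar collagen best known from cartilage, gave 0.549, 0.445, 0.504 and 0.106 CPM in WT, 1.97, 1.91, 1.09 and 0.874 CPM in T and 0.651, 0.444, 0.964 and 0.234 CPM in TCKO. T replicates 2 and 3 were high, and no T library fell into the WT range. Col27a1 rose by 1.85 ± 0.49 log2 units in T (adjusted p = 0.0116), and TCKO differed from T by -1.34 ± 0.48 (adjusted p = 0.0759), which DESeq2 called. Col11a2 was called in T against WT in each alternative run, and Col27a1 in each one that tested it, since the stricter filter on low counts removed Col27a1.

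Col11a1, partner of Col11a2 in type XI fibrils, lay at 0.516, 1.16, 0.756 and 0.6 CPM in WT and 2.07, 2.2, 1.28 and 1.09 CPM in T. WT replicate 2 overlapped the lowest T library. The rise of 1.12 ± 0.35 (adjusted p = 0.0257) was not called with the replicate number as a block (adjusted p = 0.0742). Nor was it called without WT replicate 1, WT replicate 5, T replicate 2 or T replicate 3 (0.0737 to 0.0831), without WT replicate 1 and T replicate 4 together (0.0742), or with an effective length offset (0.245). Col11a1 differed by -0.79 ± 0.34 in TCKO against T (adjusted p = 0.143). Col2a1, the type II collagen of cartilage, had 0.106 to 0.288 CPM in WT and 0.281 to 1.25 CPM in T, a difference of 1.45 ± 0.53 (adjusted p = 0.0578). Col5a2 and Col1a2 did not pass in either comparison.

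Col1a1 and Col3a1, the interstitial collagens of fibroblasts, gave the fibrillar falls in TCKO. Col1a1 lay at 2.62, 2.46, 3.24 and 3.64 CPM in WT, 6.24, 5.79, 4.57 and 3.81 CPM in T and 2, 1.46, 1.97 and 2.46 CPM in TCKO. Each T library stood above all WT and all TCKO libraries. The difference of T from WT was 0.77 ± 0.31 (adjusted p = 0.0803), not called here but called by DESeq2, by limma voom, and by edgeR from the 8 libraries alone or without CKO replicate 2. Col1a1 fell by 1.37 ± 0.32 log2 units in TCKO against T (adjusted p = 0.00877) in each alternative run. Col3a1 lay at 0.646, 0.741, 1.73 and 0.459 CPM in WT, 2.67, 1.47, 3.74 and 1.25 CPM in T and 0.347, 1.14, 0.853 and 0.585 CPM in TCKO. TCKO was below T throughout, while WT replicate 4 lay inside the T range. Col3a1 rose by 1.35 ± 0.47 log2 units in T (adjusted p = 0.0463, and 0.0654 with the replicate number as a block) and differed by -1.62 ± 0.48 in TCKO against T (adjusted p = 0.0341). The rise was not called without WT replicate 1, 2 or 5, CKO replicate 1 or 2, T replicate 2 or 4, or TCKO replicate 5 (0.0522 to 0.157), and the fall was not called without T replicate 2 or 4 or TCKO replicate 2 or 5 (0.092 to 0.115). Without WT replicate 1 and T replicate 4 together, the 2 adjusted p-values were 0.264 and 0.118. With an effective length offset they were 0.356 and 0.434. Col1a2, whose chain joins that of Col1a1 in type I collagen, differed by -0.67 ± 0.46 in TCKO against T (adjusted p = 0.371).

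Type VI collagens form beaded filaments around cells, and 1 of 4 tested was called, in TCKO against T. Col6a1 lay at 4.16, 2.02, 1.22 and 4.66 CPM in WT, 1.3, 2.05, 2.3 and 5.03 CPM in T and 0.998, 0.856, 1 and 0.273 CPM in TCKO. WT and T overlapped fully, and all TCKO libraries were below them. The difference of TCKO from T was -1.77 ± 0.57 (adjusted p = 0.0492), a call lost in 20 of 28 alternatives. Leaving out any 1 of 13 libraries ended it (0.0501 to 0.135): WT replicate 1, 2 or 5, CKO replicate 1, 2 or 5, T replicate 3, 4 or 5, or any TCKO replicate. Without WT replicate 1 and T replicate 4 together its adjusted p was 0.0781. Col6a2 lay at 0.987, 0.989, 0.992 and 1.31 CPM in T and 0.694, 0.127, 0.334 and 0.351 CPM in TCKO. These groups did not overlap, and the difference of -1.52 ± 0.71 was not called (adjusted p = 0.174). Col6a3 differed in the other direction, by 1.51 ± 0.80 (adjusted p = 0.235), with TCKO libraries at 0.13, 4.21, 3.3 and 0.702 CPM. TCKO replicates 3 and 4 were the high ones.

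The summed level of 15 meningeal and perivascular fibroblast markers, of which Foxc2 and Slc22a2 were at 0 in some libraries, was 100 to 261 CPM in T and 64.0 to 87.9 CPM in TCKO, with no overlap. In WT it was 137 to 400 CPM and in CKO 59.4 to 252 CPM. The 261 CPM in T was that of replicate 4, a choroid-rich library. T replicates 2, 3 and 5, at 119, 100 and 114 CPM, lay below each WT library. Of the 13 fibroblast markers tested, 0 rose and 1 fell in TCKO against T, with a median of -0.71, and 1 rose and 1 fell in T against WT, with a median of -0.33. Pericyte markers (10) summed to 164 to 201 CPM in WT, 169 to 216 in T and 141 to 165 in TCKO, with 1 rise in T and 1 fall in TCKO against T. Smooth muscle markers (8) summed to 30.0 to 54.1 CPM in WT, 35.7 to 51.6 in T and 26.2 to 33.3 in TCKO, with 0 rises in T and 1 fall in TCKO against T. TCKO was thus below T in each library for the markers of fibroblasts, pericytes and smooth muscle. The same held for the microglial and astrocyte markers given below, but not for those of endothelium, oligodendrocytes or oligodendrocyte precursors. Endothelial markers (12) summed to 273 to 328 CPM in WT, 295 to 384 in T and 245 to 308 in TCKO, with 2 rises and then 3 falls. Microglial markers (8) summed to 423 to 580 CPM in WT, 1440 to 1910 in T and 563 to 923 in TCKO, with 7 rises and then 6 falls. For astrocytes (8 markers) the sums were 5790 to 6470 CPM in WT, 11100 to 14700 in T and 5610 to 8720 in TCKO, with 4 rises and then 4 falls. Oligodendrocyte markers (8) summed to 3550 to 15700 CPM in WT, 10100 to 22100 in T and 13400 to 17800 in TCKO, with 3 rises and then 0 falls. WT replicates 1 and 5 were the low ones, at 4850 and 3550 CPM. Oligodendrocyte precursor markers (8) summed to 159 to 168 CPM in WT, 164 to 286 in T and 158 to 227 in TCKO, also with 3 rises and then 0 falls. Apart from Foxc2 and Slc22a2, each marker of these cell types had reads in all libraries. Among all genes tested, 13% passed higher and 11.2% lower in T against WT, and 8.05% passed lower in TCKO against T. In bulk tissue, fewer cells of a type and less RNA per cell cannot be told apart, and the part of these cells in the results was not tested.

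The FACIT collagens attach to fibrils or membranes, and 1 of 7 tested rose in T and 2 fell in TCKO against T. Col16a1, the member with the largest rise, lay at 0.0646, 0.119, 0.18 and 0.247 CPM in WT, 1.66, 2.42, 1.28 and 1.31 CPM in T and 0.39, 0.444, 0.853 and 0.312 CPM in TCKO. Each T library was above 1 CPM and each library of the other genotypes was below it. Over 4 libraries Col16a1 had 18 reads in WT, 200 in T and 54 in TCKO. The rise was 3.42 ± 0.54 log2 units (adjusted p = 0.000243), called in each alternative run. TCKO differed from T by -1.72 ± 0.48 (adjusted p = 0.027), which was not called without T replicate 2 or 3 or TCKO replicate 2, 3 or 5 (0.0538 to 0.0855). Nor was this difference called with the replicate number as a block (0.055) or with an effective length offset (0.147). Col12a1, which decorates type I fibrils, lay at 0.891, 1.5, 1.5 and 2.5 CPM in T and 0.477, 0.634, 0.89 and 0.663 CPM in TCKO, a difference of -1.26 ± 0.35 (adjusted p = 0.0274). The groups did not overlap, with TCKO replicate 4 just below T replicate 2. Leaving out T replicate 5 or TCKO replicate 2, 3 or 5 ended this call (0.0521 to 0.0761), as did leaving out WT replicate 1 and T replicate 4 (0.0515). So did the replicate number as a block (0.0514) and an effective length offset (0.102). Col12a1 differed by 0.39 ± 0.34 in T against WT (adjusted p = 0.454).

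**Figure D3:**
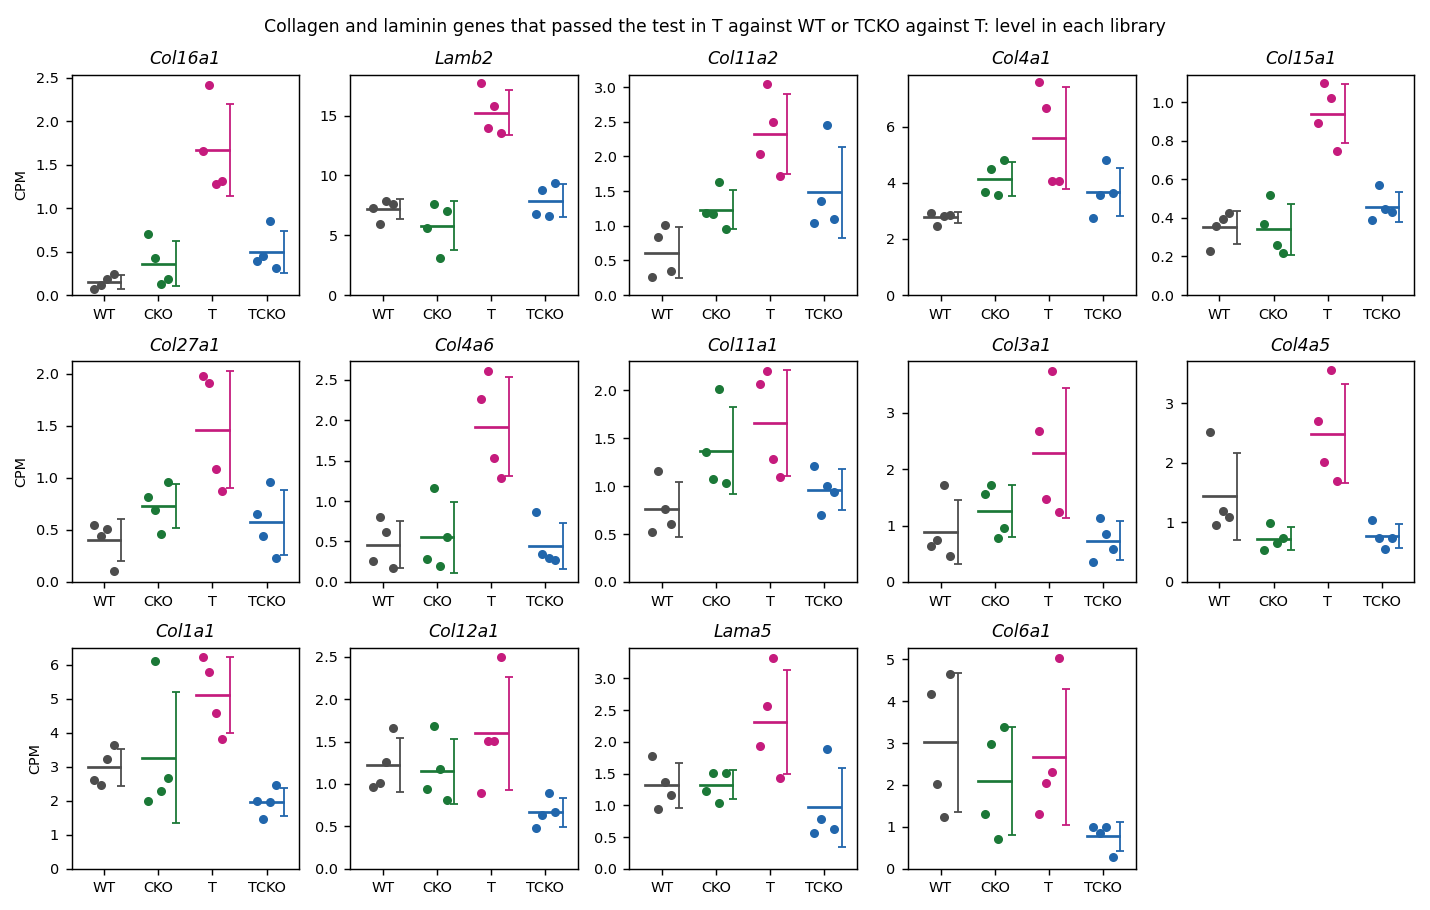
Level (CPM, linear axes from 0) of the 14 collagen and laminin genes called in T against WT or in TCKO against T, one point per library, with a line at the group mean and a bar of ± 1 SD (n = 4). For Col16a1, Lamb2, Col4a6 and Col15a1, all T libraries lie above all libraries of the other genotypes.

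Neither membrane-anchored collagen tested was called in T against WT or in TCKO against T. Col23a1, a collagen shed from the cell surface, lay at 8.68, 6.05, 2.52 and 10.1 CPM in WT and 1.43, 4.25, 1.41 and 1.69 CPM in T. T replicate 3 overlapped the lowest WT library and the other T libraries were below it. The difference of -1.64 ± 0.62 did not pass (adjusted p = 0.0645), but it passed with the replicate number as a block (adjusted p = 0.0338) and in DESeq2. CKO libraries were also low, at 1.11, 3.32, 1.5 and 4.3 CPM, with a difference from WT of -1.40 ± 0.62 (adjusted p = 0.415). Col25a1 lay at 16.2, 25.4, 13.7 and 19.1 CPM in WT, 19.6, 8.83, 9.82 and 14.1 CPM in T and 12.4, 37.5, 19.98 and 12.2 CPM in TCKO, with TCKO replicate 3 the highest of all. The groups overlapped, and neither -0.51 ± 0.32 in T against WT nor 0.65 ± 0.33 in TCKO against T passed (adjusted p = 0.286 and 0.205). Col26a1, which belongs to none of these classes, differed by 0.85 ± 0.67 and 0.18 ± 0.64 and did not pass (adjusted p = 0.395 and 0.889).

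Col8a1, Col8a2 and Col4a3 were highest in the 2 libraries rich in choroid plexus markers. Col8a1, a short-chain collagen of endothelial and corneal membranes, lay at 31.8, 1.75, 0.972 and 0.883 CPM in WT and 1.37, 0.879, 42.8 and 1.25 CPM in T. The high libraries are WT replicate 1 and T replicate 4, and the other 14 libraries had 0.205 to 1.75 CPM. Col8a2, its partner chain, gave 4.45, 0.741, 0.9 and 0.318 CPM in WT and 1.21, 0.293, 8.76 and 0.624 CPM in T, again with these libraries on top. Col4a3 gave 4.04, 0.386, 0.324 and 0.459 CPM in WT and 0.35, 0.55, 3.68 and 0.968 CPM in T. The difference of TCKO from T was -3.36 ± 1.32 for Col8a1 with all libraries (adjusted p = 0.106) and -0.07 without the 2 choroid-rich ones (adjusted p = 0.947). For Col4a3 it went from -1.15 ± 0.80 to -0.01 (adjusted p = 0.376 and 0.995). Col9a3, a FACIT chain, lay at 7.62, 2.43, 1.76 and 0.671 CPM in WT and 4.87, 4.84, 12 and 3.93 CPM in T. Its difference between T and WT was 1.03 ± 0.55 with all libraries (adjusted p = 0.187). Without the 2 choroid-rich libraries it was 1.5 (adjusted p = 0.0267), and without WT replicate 1 alone it was 1.97 (adjusted p = 0.00997).

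**Figure D4:**
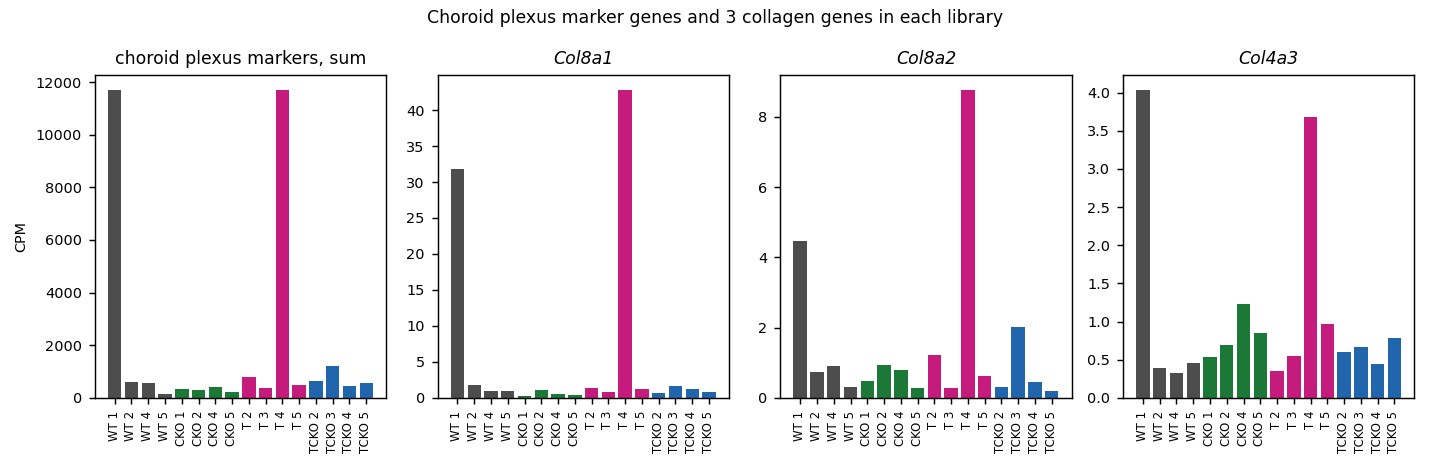
Summed level of 15 choroid plexus markers and levels of Col8a1, Col8a2 and Col4a3 (CPM, linear axes from 0), one bar per library, coloured by genotype. WT replicate 1 and T replicate 4 are the tallest bars in each panel.

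Loss of Ch25h without the transgene changed 0 of 43 members by edgeR, and also 0 by DESeq2 and by limma voom. Of all genes, 0.0108% passed in CKO against WT. At an unadjusted p below 0.05 there were 5 higher and 3 lower members. Groups did not overlap for 2 higher members, Col4a1 and Col4a2, and 1 lower, Lama1, against 4.88% higher and 4.06% lower over all genes (8.94% together). That is no more than these shares of all genes would give, and the 3 members are named only to give their values. Col4a1 lay at 3.69, 4.48, 3.58 and 4.81 CPM in CKO, a difference of 0.58 ± 0.23 from WT (adjusted p = 0.382). Col4a2 lay at 3.52, 4.01, 4.88 and 3.16 CPM in CKO, a difference of 0.83 ± 0.23 (adjusted p = 0.283). Each CKO library of Col4a1 and of Col4a2 was above each WT library, and neither gene passed. Lama1 lay at 0.655, 0.69, 0.846 and 0.625 CPM in CKO, and differed by -0.63 ± 0.44 (adjusted p = 0.611).

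The transgene on the Ch25h-null background, TCKO against CKO, also changed 0 of 43 members by edgeR, DESeq2 and limma voom, where 0.539% of all genes passed. At an unadjusted p below 0.05, 5 members were higher and 6 lower in TCKO. Groups did not overlap for 4 higher members and 1 lower, against 5.32% higher and 4.93% lower over all genes (10.3% together). Col16a1 differed by 0.44 ± 0.51 in this comparison (adjusted p = 0.7), Lamb2 by 0.43 ± 0.22 (adjusted p = 0.324) and Col4a6 by -0.34 ± 0.58 (adjusted p = 0.811). Without TCKO replicate 5, 1 member was called, Col19a1, a collagen made by hippocampal interneurons. Col19a1 lay at 6.8, 5.73, 5.08 and 8.16 CPM in CKO and 2.6, 2, 3.26 and 6.2 CPM in TCKO, and replicate 5 was the highest of TCKO. With all libraries its difference was -0.88 ± 0.32 (adjusted p = 0.176).

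Whether the transgene difference itself depended on Ch25h was tested by the interaction, the difference of TCKO from CKO minus that of T from WT. It passed for 1 of 43 members, 2.33%, against 3.15% of all genes, 2.45% lower and 0.695% higher. That member was Col16a1, at -2.98 ± 0.74 log2 units (adjusted p = 0.0361). CKO libraries of Col16a1 lay at 0.696, 0.431, 0.13 and 0.184 CPM, higher on average than WT. The call was lost in 15 of 27 alternatives, among them leaving out WT replicate 1, 2 or 4, CKO replicate 1 or 2, T replicate 2 or 3, or TCKO replicate 2, 3 or 5 (0.0548 to 0.0965) and limma voom (0.0543). Without WT replicate 1 and T replicate 4 together the interaction was -2.84 (adjusted p = 0.0759). Its adjusted p was 0.0822 with the replicate number as a block and 0.344 with an effective length offset. DESeq2, for which the shares of all genes above are no background, called 7 members, adding Col1a1, Col3a1, Col11a1, Col27a1, Col4a1 and Col4a2. None of these added members passed in the main edgeR fit. It gave, for example, -1.51 ± 0.44 for Col1a1 (adjusted p = 0.0731), -1.18 ± 0.33 for Col4a1 (adjusted p = 0.0595) and -1.07 ± 0.33 for Col4a2 (adjusted p = 0.081). Of the other genes called in the 2 main comparisons, the interaction was -0.66 ± 0.31 for Lamb2 (adjusted p = 0.259) and -2.37 ± 0.81 for Col4a6 (adjusted p = 0.116). At an unadjusted p below 0.05, 12 members had a lower and 3 a higher interaction.

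Genes that fold, modify, bind or degrade collagens and laminins were given the same test in 6 lists. Over all genes, 13% passed higher and 11.2% lower in T against WT, 8.05% passed lower in TCKO against T, and 3.15% passed in the interaction. When replicate numbers entered as a block, calls in T against WT went from 10 higher and 1 lower to 6 and 0 in the folding list, from 3 to 2 higher in processing and crosslinking, and from 4 to 2 in basement membrane partners. They went from 8 to 6 in receptors and from 7 to 5 in TGF-beta genes, and stayed at 7 in proteases. Of 18 genes for folding and modification in the endoplasmic reticulum, 10 rose and 1 fell in T against WT, and 5 fell in TCKO against T, with medians of 0.53 and -0.36. P4ha3, a subunit of the prolyl hydroxylase that stabilises the helix, lay at 0.662 ± 0.362 CPM in WT, 5.92 ± 2.33 CPM in T and 1.42 ± 0.593 CPM in TCKO (mean ± SD, n = 4). P4ha3 rose by 3.15 ± 0.44 log2 units in T and differed by -2.06 ± 0.42 in TCKO against T (adjusted p = 7.97e-05 and 0.00355). Plod3, a lysyl hydroxylase that also adds sugars to collagen, rose by 1.08 ± 0.15 and differed by -0.77 ± 0.15 (adjusted p = 8.88e-05 and 0.00312). Plod2, the lysyl hydroxylase of the collagen ends, rose by 1.31 ± 0.27 in T (adjusted p = 0.00223), and P3h3, of the prolyl hydroxylase family, differed by -1.26 ± 0.31 in TCKO against T (adjusted p = 0.0127).

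Of 13 processing and crosslinking genes tested, 3 rose in T against WT and 3 fell in TCKO against T. Lox, the lysyl oxidase that crosslinks collagen, had 5 reads over the 4 WT libraries, 180 in T and 13 in TCKO. Lox rose by 5.04 ± 1.01 log2 units (adjusted p = 0.00194), a fitted value that rests on few WT reads, and differed by -3.51 ± 0.90 in TCKO against T (adjusted p = 0.0167, 0.0569 to 0.0629 without T replicate 2 or TCKO replicate 5). Tgm2, a transglutaminase that crosslinks matrix proteins, rose by 1.2 ± 0.19 and differed by -1.09 ± 0.19 (adjusted p = 0.000278 and 0.00113). Loxl3, a relative of Lox, rose by 0.67 ± 0.23 (adjusted p = 0.0419), but not with the replicate number as a block (adjusted p = 0.15) or without any 1 of 8 libraries: WT replicate 1, 2, 4 or 5, CKO replicate 1, or T replicate 2, 3 or 4 (0.0517 to 0.149). Without WT replicate 1 and T replicate 4 together its adjusted p was 0.199. Pcolce, an enhancer of procollagen cleavage, differed by -1.75 ± 0.54 in TCKO against T (adjusted p = 0.043). Without WT replicate 1 and T replicate 4 the difference was -0.61 (adjusted p = 0.182), and without T replicate 4 alone it was -0.60 (adjusted p = 0.297). That call was lost in 13 of 27 alternatives, with adjusted p from 0.0524 to 0.297 without WT replicate 2, CKO replicate 4 or 5, T replicate 4 or any TCKO replicate.

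Of 13 basement membrane partners tested, 4 rose in T against WT and 4 fell in TCKO against T. Sparc, a collagen-binding glycoprotein, lay at 489 ± 150.4 CPM in WT, 858 ± 198 CPM in T and 395 ± 69.7 CPM in TCKO. Its rise of 0.81 ± 0.24 (adjusted p = 0.023) became 0.0515 with the replicate number as a block and 0.0627 to 0.0953 without WT replicate 2, WT replicate 4 or T replicate 2. In TCKO against T, Sparc differed by -1.12 ± 0.25 (adjusted p = 0.00649). Efemp1, a fibulin, rose by 0.95 ± 0.17 and differed by -1.13 ± 0.17 (adjusted p = 0.000722 and 0.000313). Bgn, the proteoglycan biglycan, rose by 0.86 ± 0.22 and differed by -1.04 ± 0.22 (adjusted p = 0.00912 and 0.00521).

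Of 14 collagen and laminin receptors tested, 8 rose in T and 6 fell in TCKO against T. Lair1, an inhibitory collagen receptor of leukocytes, lay at 14 ± 2.08 CPM in WT, 58.6 ± 1.9 CPM in T and 21.6 ± 7.91 CPM in TCKO. It rose by 2.07 ± 0.20 in T and differed by -1.44 ± 0.20 in TCKO against T (adjusted p = 3.17e-06 and 0.000156). Itga6, the alpha subunit of laminin-binding integrins, rose by 1.5 ± 0.20 and differed by -1.11 ± 0.19 (adjusted p = 4.19e-05 and 0.00112). Ddr1, a receptor tyrosine kinase that binds collagen, rose by 1.77 ± 0.24 in T (adjusted p = 5.47e-05), and Cd44, a hyaluronan receptor that also binds collagen, differed by -2.98 ± 0.49 in TCKO against T (adjusted p = 0.000698).

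Of 14 proteases, inhibitors and uptake genes tested, 7 rose in T and 6 fell in TCKO against T. Ctsl, the lysosomal protease cathepsin L, lay at 117 ± 8.99 CPM in WT, 295 ± 37.2 CPM in T and 128 ± 26.1 CPM in TCKO. It rose by 1.34 ± 0.14 and differed by -1.20 ± 0.14 (adjusted p = 4.07e-06 and 3.73e-05). Mmp12, the macrophage elastase, had 851 reads over the 4 T libraries and 79 over those of TCKO, against 6 for WT and 1 for CKO. It was the 1 gene of the 6 lists called in TCKO against CKO (adjusted p = 0.0265). That call was lost in limma voom (0.142), with the replicate number as a block (0.0644), with a minimum fold of 1.2 (0.0551), and without any 1 CKO library or TCKO replicate 3 (0.0681 to 0.107). Timp1, an inhibitor of matrix metalloproteinases, rose by 5.78 ± 0.79 in T and differed by -3.38 ± 0.67 in TCKO against T (adjusted p = 6.53e-05 and 0.00318). Of 15 TGF-beta ligands, receptors and effectors tested, 7 rose in T and 6 fell in TCKO against T. Tgfbr2, the ligand-binding receptor, rose by 2.30 ± 0.21 and differed by -1.38 ± 0.20 (adjusted p = 1.74e-06 and 0.000246). Tgfbr1, its signalling partner, rose by 1.37 ± 0.13 and differed by -1.04 ± 0.13 (adjusted p = 2.89e-06 and 7.62e-05). Acvrl1, the endothelial receptor of the same family, rose by 0.71 ± 0.16 and differed by -0.81 ± 0.16 (adjusted p = 0.00404 and 0.00296). In CKO against WT, 0 genes of the 6 lists passed the edgeR test. In the interaction, 7 genes had a lower value: Tgm2, Itga1, Itga6, Lair1, Ctsl, Tgfbr1 and Tgfbr2. The microglial marker sums given above moved the same way as Lair1, Ctsl, Mmp12 and the TGF-beta receptors, and their part in these results was not tested.

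**Figure D5:**
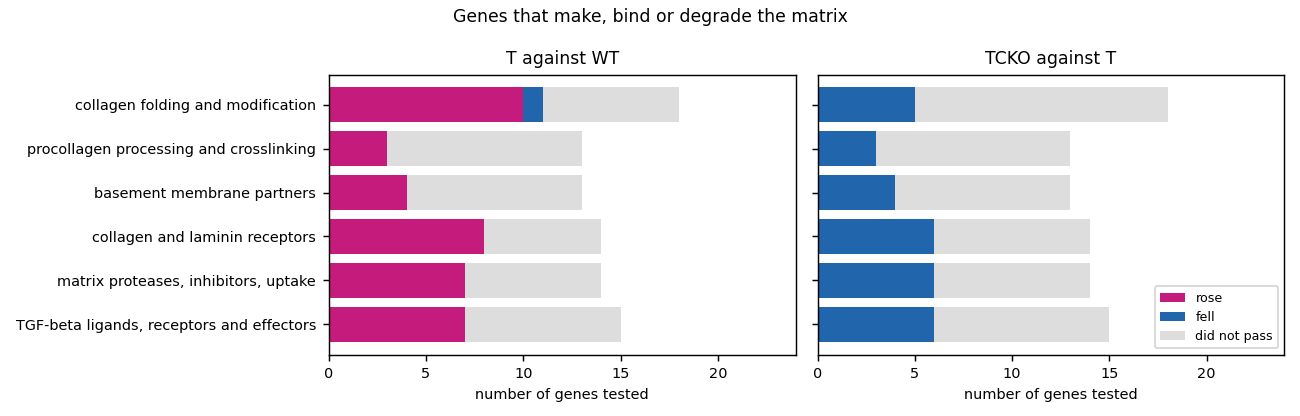
Number of genes tested (x axis) in each of 6 lists, split into those that rose, fell or did not pass an adjusted p of 0.05, in T against WT and in TCKO against T. Rises lead in T against WT, with 1 fall, and TCKO against T shows falls alone.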

How the data were processed

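RNA of the right hippocampus was made into libraries with an oligo-dT based low-input kit, per the labels' protocols. The submitters' processing notes name STAR 2.5.1a, featureCounts 1.4.6-p5 and GRCm38. The quantifier behind the files and its annotation are not given in the sources used here. Per the file headers, the deposited values are estimated counts per gene (expected counts, 74.53% of those above 0 whole) with TPM and effective lengths. Of 55774 table lines, 287 repeated a gene and were dropped. Counts were rounded and fitted in edgeR 4.0.16 (R 4.3.3) with TMM scaling, after filterByExpr had kept 18565 genes. All 16 libraries entered 1 fit, with genotype as the only term. Contrasts were tested by quasi-likelihood F, and p-values were adjusted by Benjamini-Hochberg over all genes, with a threshold of 0.05. SE is the log2 fold change divided by the root of F. The procedure was tested on simulated data. Coordinates came from GENCODE M21 and promoter windows from RefSeq on GRCm38.p6.

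Members passing the threshold with a group mean of at least 1 CPM were named, with up to 3 members of each class and up to 3 genes of each pathway list by smallest p in T against WT and in TCKO against T. Of the members tested, 1 enters the counts but is not reported here by name. The members and lists were chosen with earlier results of these data known. Replicate numbers come from the labels, which do not say what they mark. Same-numbered WT and T libraries deviated together (r = 0.121, 0.137 and 0.304 over genes), so blocked values stand beside the calls named in T against WT, and the list counts, where they change. Alternatives were DESeq2 1.42.0, limma 3.58.1 voom, other scalings and filters, the block, an effective length offset, a minimum fold of 1.2, and leaving libraries out.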

Additional observations from a re-analysis of the deposited data

Results flagged for a closer look

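In 12 of 124 groups of 4 libraries (31 members in 4 genotypes), 1 library lay far from the rest of its group, where chance gives about 1 in 20. The same libraries enter the groups of all 31 members, so the groups are not independent and this rate is no test of the 12. In 6 of the 12 the library was 1 of the choroid-rich pair, WT replicate 1 or T replicate 4. Col8a1 was at 31.8 CPM in WT replicate 1 (others 0.883 to 1.75) and at 42.8 CPM in T replicate 4 (others 0.879 to 1.37). Col8a2 was at 4.45 CPM in WT replicate 1 (others 0.318 to 0.900) and at 8.76 CPM in T replicate 4 (others 0.293 to 1.21). Col9a3 was at 12 CPM in T replicate 4 (others 3.93 to 4.87). WT replicate 1 was also high for Col4a5, at 2.52 CPM (others 0.949 to 1.19).

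In TCKO, replicate 3 was high for Col8a2 at 2.03 CPM (others 0.195 to 0.445) and for Lamb3 at 4.15 CPM (others 1.6 to 1.85), and replicate 2 was high for Col4a6 at 0.867 CPM (others 0.273 to 0.349). T replicate 3 was high for Col23a1 at 4.25 CPM (others 1.41 to 1.69). T replicate 5 was high for Col6a2 at 1.31 CPM (others 0.987 to 0.992). CKO replicate 2 was high for Col1a1 at 6.12 CPM (others 2.01 to 2.68).

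Col16a1 had an interaction of -2.98 log2 units, the transgene difference without Ch25h minus that with Ch25h (edgeR, adjusted p = 0.0361). The call was lost in 15 of 27 alternatives. Among them were limma voom (0.0543), the replicate number as a block (0.0822) and an effective length offset (0.344).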

How the results depend on the processing

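In T against WT, 6 to 13 members were called over all alternatives, and 7 to 13 when 1 library was left out. In TCKO against T the count of 9 became 5 from the 8 libraries compared alone, 5 without WT replicate 1 and T replicate 4, 5 with an effective length offset and 5 with a minimum fold of 1.2, and lay between 3 and 10 when 1 library was left out (3 without TCKO replicate 5). In TCKO against CKO it was 0 or 1 when 1 library was left out. The interaction count of 1 became 7 with DESeq2, 2 with a stricter filter on low counts (at least 1 CPM in 4 libraries), and 0 with limma voom, without WT replicate 1 and T replicate 4, with an effective length offset and with a minimum fold of 1.2. It lay between 0 and 5 when 1 library was left out. The causes were not tested. In CKO against WT 0 members were called under each alternative run.

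With the replicate number as a block, counts were 8 in T against WT, 0 in CKO against WT, 6 in TCKO against T, 0 in TCKO against CKO and 0 in the interaction. For T and TCKO the correlations of same-numbered libraries ran from -0.142 to 0.169, and 2 of 8 libraries correlated best with their own number. Of the named gene values called in the main fit or in an alternative, 0 changed sign between the main fit and that alternative. Values called in neither were not scored for this, and some did change sign. Col8a2 in TCKO against T went from -1.84 to 0.08 without WT replicate 1 and T replicate 4. Col16a1, Col11a2, Col4a1 and Lamb2 in T against WT, and Col1a1 and Col4a5 in TCKO against T, were called under each alternative run. Col27a1 in T against WT was called under the 27 alternatives that tested it, and the stricter filter removed it.

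Depth limits these results. Of the 43 members tested, 36 had a mean under 5 CPM, and the median member had 599 reads over the 16 libraries together. Mean effective lengths of Lama5, Col15a1, Col16a1 and Col3a1 differed between genotypes by 4.63, 1.93, 2.44 and 1.89 times (highest over lowest). Effective lengths enter TPM and the length offset but not CPM.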
